A study of Mus musculus with 13 samples.

Results

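The clustered protocadherins are a family of neighbouring, closely related cell adhesion genes, and their DNA methylation was compared here between mouse livers on different diets. The members are the sites of the authors' table whose gene symbol belongs to the Pcdha, Pcdhb, Pcdhga or Pcdhgb series. This rule takes 108 of the 23904 listed sites, at 39 of the 9100 symbols, and does not use any methylation value. There were 32 sites at Pcdha genes, 34 at Pcdhb genes and 42 at Pcdhg genes. Liver DNA came from 13 mice, 7 fed a low fat/low sucrose diet and 6 fed a high fat/high sucrose diet, and was measured by capture followed by bisulfite sequencing, which reads unmethylated cytosines as thymine. Genotype, strain, sex, age and length of feeding are not given in the labels, and whether the mice were littermates is not given either. Each listed site has an average percent methylation per diet, a difference in percentage points and a q-value, all from the authors' comparison. The table holds only sites with a q of at most 0.010 and a difference of at least 5.0 points, so every member has passed the authors' test. Where a site is said to go from one percentage to another, the first is the average of the low fat/low sucrose mice and the second that of the high fat/high sucrose mice. The points beside them are the authors' own difference, which is not exactly the difference of those averages: for members the gap was at most 8.90 points. Read depth is unknown and single mice were not analysed here, so no SD is given, and counts of sites carry no variation between mice.

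Clustered protocadherins are transmembrane adhesion proteins that bind the same isoform on a neighbouring cell, and they are best known from neurons, where they help sister branches recognise and avoid each other. In the alpha and gamma clusters, each variable first exon has its own promoter and is spliced to constant exons that the whole cluster shares. The beta genes are single-exon genes. Neurons use a few of the variable promoters per cell, and the choice is tied to promoter methylation and to looping by CTCF and cohesin. The genes arose by duplication, so reads from one copy can be placed on another, and which copy a listed site belongs to is uncertain for every member.

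The member sites lay on chromosome 18 (mm9) from 37090206 to 37927858, a stretch of 837653 bp. Pcdha sites ran from 37090206 to 37181958, Pcdhb sites from 37455970 to 37679394 and Pcdhg sites from 37821348 to 37927858. With its other sites, the 1 Mb window that holds the stretch contained 129 listed sites, the most of the 2125 such windows with a site. The next fullest window held 69 and the median window 8. Most members lay in exons: 92 of 108 (85.2%) carried the authors' exon flag, against 13.3% of all listed sites. The flags are not exclusive, and 106 members (98.1%, against 49.1%) carried the intron flag. CpG islands held 49 members (45.4%, against 7.12% of all listed sites) and island shores 33 (30.6%, against 20.5%). The remaining 26 lay outside both. Promoter flags, which reach about as far as 1000 bp from a start, were set at 41 members (38.0%, against 17.5%). The median member lay 1397 bp from the start it is named for and the farthest 7481 bp. Only captured and covered positions can be listed, and the part of the capture design in these shares was not tested.

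Of the 53 genes that the rule takes in the RefSeq gene table for GRCm38.p6, 39 had a site listed under their symbol. Sites were listed at 11 of 12 Pcdha genes, 15 of 22 Pcdhb genes and 13 of 19 Pcdhg genes. The 14 with none under their symbol were Pcdha4 in the alpha cluster, Pcdhb1, Pcdhb4, Pcdhb6, Pcdhb9, Pcdhb11, Pcdhb13 and Pcdhb14 in the beta cluster, and Pcdhga3, Pcdhga4, Pcdhga6, Pcdhga7, Pcdhga9 and Pcdhgb2 in the gamma cluster. Between the Pcdha3 and Pcdha5 sites lay a listed site without a symbol, at 37113063, whose transcript is described below with the unnamed sites. It is not counted for Pcdha4 here. A gene without a site under its symbol may have been unchanged, uncovered, below the authors' limits or listed without its symbol. Except for the unnamed site just given, these cannot be told apart here.

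Over all members, methylation was higher in high fat/high sucrose livers at 71 sites and lower at 37. The share higher was 65.7%, against 57.6% of all listed sites. The clusters differed from each other in this count. Pcdha sites were higher at 15 of 32 (46.9%), Pcdhb sites at 20 of 34 (58.8%) and Pcdhg sites at 36 of 42 (85.7%). Without the gamma sites 35 of 66 (53.0%) were higher. With member sites within 1000 bp joined and given the direction of the site of smallest p, 33 of 54 groups (61.1%) were higher, against 55.6% over the whole table. The difference between the clusters was not tested, since sites of the same 13 mice are not replicates.

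**Figure D1:**
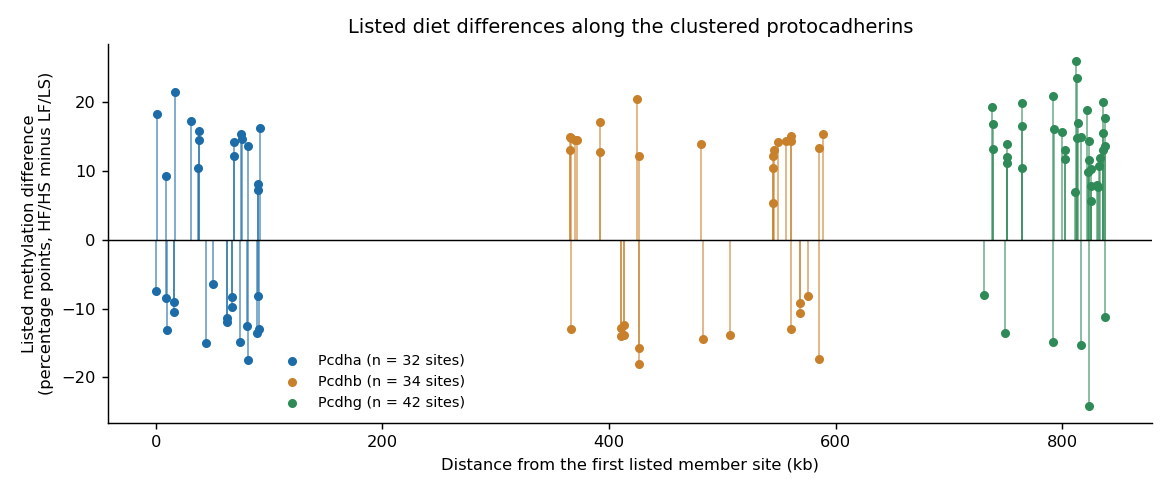
Listed methylation difference at each of the 108 member sites (vertical axis, percentage points; HF/HS is high fat/high sucrose and LF/LS low fat/low sucrose) against distance along the stretch (horizontal axis, kb from the first member site). Points above 0 are higher in HF/HS: 15 of 32 Pcdha, 20 of 34 Pcdhb and 36 of 42 Pcdhg sites.

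The changes were somewhat larger than those elsewhere in the table by the median and at 10 points, and about as large at 15 points. The median rise over members was 14.2 points and the median fall -12.9 points, against 11.7 and -11.6 points over all listed sites. Differences of 10 points or more were listed at 88 members (81.5%, against 65.0% of all listed sites). Differences of 15 points or more were listed at 29 members (26.9%, against 25.7% of all listed sites). A q under 0.001 was listed at 27 members (25.0%, against 23.5%), 19 of them higher and 8 lower. Of the 5626 listed sites with such a q, members included, 3362 were higher and 2264 lower. By cluster, the q was under 0.001 at 1 higher and 4 lower Pcdha sites, 4 higher and 3 lower Pcdhb sites, and 14 higher and 1 lower Pcdhg sites. The mean over Pcdha sites went from 52.7% to 52.5%, and that over Pcdhb sites from 55.9% to 58.7%. Over Pcdhg sites it went from 31.9% to 41.3%, so gamma sites were both the least methylated and the ones whose mean moved most.

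**Figure D2:**
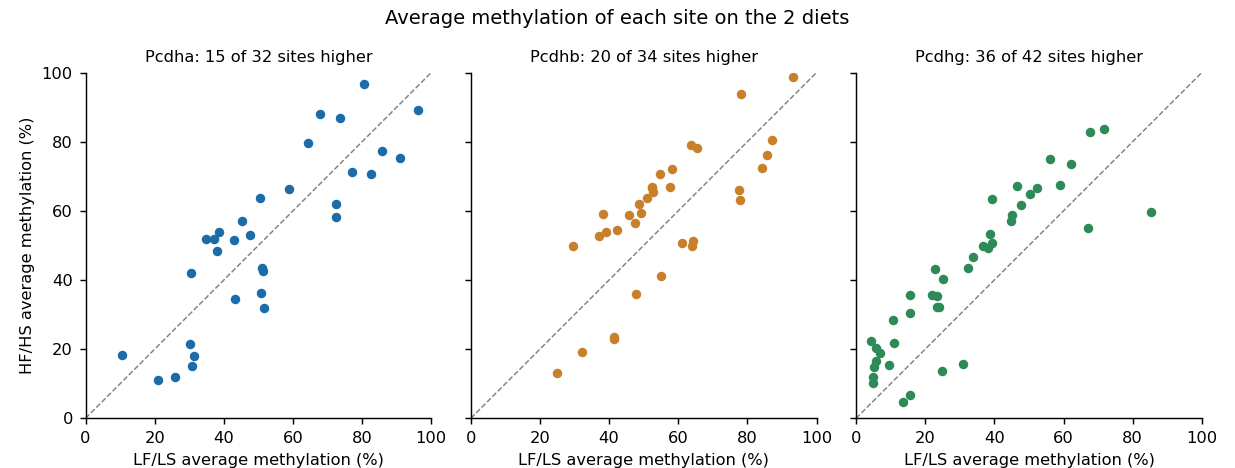
Average methylation of each member site in high fat/high sucrose (HF/HS, vertical axis, %) against low fat/low sucrose (LF/LS, horizontal axis, %), one panel per cluster; the dashed line marks equal averages. Pcdhg points lie above the line at 36 of 42 sites, while Pcdha points fall on both sides.

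In the gamma cluster the variable genes fall into the interleaved A and B types, and both had mostly rises. Pcdhga genes were higher at 18 of 22 sites and Pcdhgb genes at 18 of 20. The largest rise of all members was at Pcdhgb6, where all 5 sites were higher. The Pcdhgb6 site on chromosome 18 at 37902519, in a promoter, exon and shore 773 bp after the start, went from 39.3% to 63.4% in the authors' deposited table (25.9 points, q = 0.000256). Further into the same exon, the island site at 37903568 went from 22.9% to 43.2% in the authors' deposited table (23.5 points, q = 0.000484). The 3 other Pcdhgb6 sites had differences of 6.87, 14.7 and 17.0 points in the authors' deposited table. The smallest of these was 70 bp before the start, where methylation went from 4.79% to 12.1%.

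Pcdhga12, the last A-type gene of the cluster, held the member site with the smallest q. That site, at 37926238 in an island and exon, went from 15.7% to 35.7% in the authors' deposited table (19.99 points, q = 1.16e-05). It ranked 469 by p among the 23904 sites. Of the 6 Pcdhga12 sites 5 were higher, by 12.9 to 19.99 points. The sixth, the farthest from the start at 2626 bp, went from 15.7% to 6.81% in the authors' deposited table (-11.2 points), and lay 112 bp from a site that was 17.6 points higher.

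Several listed sites in gamma promoters had low averages in low fat/low sucrose livers. Other listed promoter sites were not as low, as at Pcdhga11, with 24.0% and 23.4% beside 4.94%. Promoter positions that are not listed are unknown, so the level of a whole promoter is not shown. At Pcdhga5 all 3 sites lay within 289 bp after the start and all were higher. The first Pcdhga5 site, at 37854219, went from 4.21% to 22.2% in the authors' deposited table (19.9 points, q = 0.000280). The next went from 5.63% to 16.6%, and the one of smallest p, at 37854442, from 10.6% to 28.5% in the authors' deposited table (16.5 points, q = 0.000147). Pcdhga2 had a site at -170 bp from its start that went from 5.68% to 20.2% in the authors' deposited table (19.2 points). Its 2 exon sites, which carry the promoter flag too, began at 39.3% and 67.8% and also rose. The second of them, at 37829362, went to 82.8% in the authors' deposited table (16.8 points, q = 0.000161). Promoter sites were higher at 18 of 21 in the gamma cluster, against 65.2% of all listed promoter sites.

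All listed sites were also higher at Pcdhgb8 (4 of 4), Pcdhgb5 (3 of 3), Pcdhgb7 (2 of 2) and Pcdhga8 (1 of 1). The site of smallest p at Pcdhgb8, 37923017, went from 23.4% to 35.4% in the authors' deposited table (11.9 points, q = 0.000132). At Pcdhgb5 it was 37892226, from 45.1% to 58.8% in the authors' deposited table (13.0 points, q = 4.18e-05). At Pcdhgb7 it was 37912180, from 52.2% to 66.6% in the authors' deposited table (18.8 points, q = 0.00239). The single Pcdhga8 site, 37882999, went from 50.2% to 65.0% in the authors' deposited table (16.04 points, q = 0.00497). The Pcdhga8 site lies at -2361 bp from that start and 2793 bp after the start of Pcdhgb4. At Pcdhgb1 3 of 4 sites were higher, and the site at -211 bp from its start went from 24.9% to 13.8% in the authors' deposited table. Its site of smallest p, at 37841455 in the exon, went from 32.5% to 43.3% in the authors' deposited table (11.2 points, q = 0.000675). At Pcdhgb4 1 of 2 sites was higher, the island site at 37881864, which went from 56.2% to 75.0% in the authors' deposited table (20.9 points, q = 0.00204).

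Falls in the gamma cluster were few, 6 in all, and included the largest fall of any member. The site at 37913696, named for Pcdhga11, went from 85.4% to 59.6% in the authors' deposited table (-24.1 points, q = 0.000179). It lies at -1731 bp from the Pcdhga11 start and 2265 bp after that of Pcdhgb7, with an exon flag, so its name gives the nearest start and not the exon it is in. The 5 other sites named for Pcdhga11 were higher, by 5.60 to 14.3 points in the authors' deposited table. Pcdhga1 had a single site, at 37821348 and at a low level, which went from 13.7% to 4.65% in the authors' deposited table (-8.08 points, q = 0.00868). Pcdhga10 had a site at -43 bp from its start that was 14.8 points higher in the authors' deposited table. Its other site, at 37907132 and 292 bp after the start, went from 30.9% to 15.7% in the authors' deposited table (-15.3 points, q = 0.00792).

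In the alpha cluster, counts of rises differed with the distance from the start. Of the 11 Pcdha sites under 500 bp after a start, 3 were higher, and both sites before a start were lower. From 500 bp to under 1000 bp 2 of 2 were higher, and from 1000 bp to under 1500 bp 9 of 15 were. With promoter flags 5 of 15 were higher, against 10 of 17 without. Over all listed sites these shares were 65.2% with promoter flags and 56.0% without. The same bands in all listed sites held 64.9% higher from 0 to 500 bp and 64.6% from 1000 to 1500 bp. Gamma sites were higher at 4 of 5 from 0 to 500 bp and at 5 of 5 from 1000 to 1500 bp. The bands were drawn after the positions and values were seen.

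**Figure D3:**
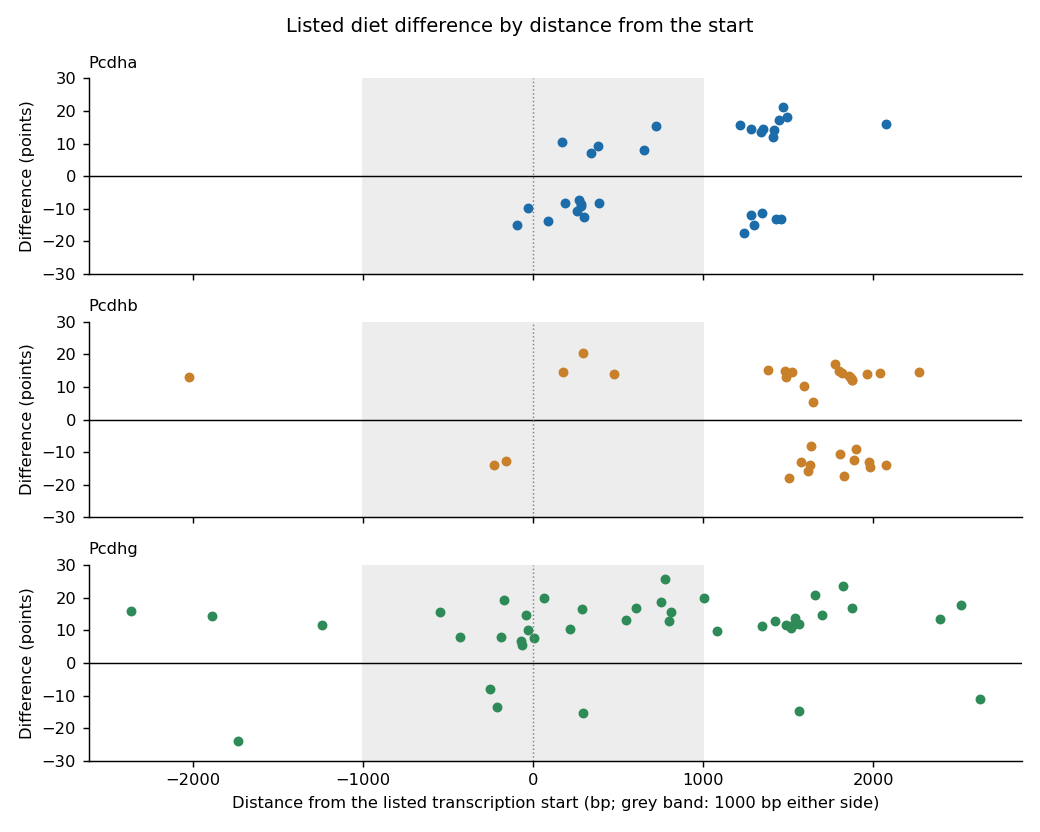
Listed methylation difference (vertical axis, percentage points; above 0 is higher in high fat/high sucrose) against distance from the listed transcription start (horizontal axis, bp), one panel per cluster; the site at 7481 bp is left out. In the alpha panel 8 of the 11 sites at 0 to 500 bp lie below 0, while 9 of 15 at 1000 to 1500 bp lie above it. Of all listed sites in these bands 64.9% and 64.6% are higher.

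Several alpha genes had falls near the start and rises farther in. At Pcdha10 the site at -93 bp from the start went from 30.7% to 15.1% in the authors' deposited table (-14.9 points, q = 0.000284). Within the exon, 720 bp after the start, the site at 37165692 went from 80.5% to 96.6% in the authors' deposited table (15.3 points, q = 0.000158), and the site at 1351 bp rose by 14.6 points. At Pcdha11 the site 298 bp after the start had the smallest q of the cluster. It went from 31.2% to 17.9% in the authors' deposited table (-12.5 points, q = 0.000119). Its site 1241 bp after the start, at 37171751, was the largest alpha fall, from 51.7% to 32.0% in the authors' deposited table (-17.4 points, q = 0.00394). Pcdha9 had falls at -31 and 390 bp from its start and rises at 1411 and 1417 bp, the last, at 37158949, from 45.4% to 57.2% in the authors' deposited table (14.2 points, q = 0.00171). Pcdha1 and Pcdha3 also had falls within 284 bp of the start and a rise beyond. The Pcdha1 rise, at 37091430, was from 67.8% to 88.0% in the authors' deposited table (18.2 points, q = 0.00129). At Pcdha3 the site of smallest p, at 37106116, went from 72.3% to 62.0% (-10.5 points, q = 0.000609), and that at 37107329 from 38.7% to 53.9% (21.4 points, q = 0.00660) in the authors' deposited table.

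Other alpha genes had another order. Pcdha12, the gene with the most alpha sites, had 3 higher and 3 lower, in the order lower, lower, higher, higher, lower, higher from 85 to 2076 bp. Its site of smallest p, at 37180067, went from 20.9% to 11.1% in the authors' deposited table (-8.20 points, q = 0.00165). All sites were higher at Pcdha6 (3 of 3) and Pcdha5 (1 of 1) and all were lower at Pcdha7 (2 of 2) and Pcdha8 (2 of 2). The Pcdha6 site at 37128626 went from 73.6% to 86.8% (15.8 points, q = 0.00416) and the Pcdha5 site at 37121536 from 35.0% to 51.7% (17.2 points, q = 0.00421) in the authors' deposited table. The Pcdha7 and Pcdha8 sites had the highest low fat/low sucrose averages of the cluster. The Pcdha7 exon site at 37134872 went from 90.9% to 75.2% in the authors' deposited table (-15.0 points, q = 0.000427). The Pcdha8 site at 37153467 went from 82.7% to 70.8% in the authors' deposited table (-11.4 points, q = 0.00338). Pcdha2 had 1 of 3 sites higher, and its site of smallest p, at 37099141, went from 30.1% to 21.5% in the authors' deposited table (-8.46 points, q = 0.00556).

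Beta sites lay mostly deep in the exon, 21 of 34 outside islands and shores, and 22 of the 34 were 1500 to 2000 bp after a start. Of those 22, 11 were higher, against 57.8% of all listed sites in that band. By gene, 6 of 15 had only rises, 4 only falls and 5 both. Pcdhb12, Pcdhb17, Pcdhb20 and Pcdhb22 had a single site each and so only one direction. The 4 sites of Pcdhb7 were all lower, by a narrow range of -14.0 to -12.4 points in the authors' deposited table, at starting levels from 24.9% to 61.0%. Its site of smallest p, at 37503425, went from 32.2% to 19.1% in the authors' deposited table (-13.9 points, q = 0.000521). Single falls or pairs of falls were listed at Pcdhb12, Pcdhb19 and Pcdhb20, whose sites began at 77.5% to 87.1% in the authors' deposited table. The Pcdhb12 site at 37596898 went from 84.1% to 72.3% in the authors' deposited table (-13.8 points, q = 0.00767). The smallest p of Pcdhb19 was at 37658451, which went from 77.5% to 66.0% in the authors' deposited table (-10.7 points, q = 0.00379). The Pcdhb20 site at 37665551 went from 87.1% to 80.5% in the authors' deposited table (-8.13 points, q = 0.00633).

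Rises only were listed at Pcdhb3, Pcdhb5, Pcdhb15, Pcdhb16, Pcdhb17 and Pcdhb22. The Pcdhb16 site at 37635400 had the smallest q of the beta cluster and went from 52.6% to 65.5% in the authors' deposited table (12.9 points, q = 7.18e-05). It lies at -2022 bp from the Pcdhb16 start and 2202 bp after that of Pcdhb15. A Pcdhb5 site, at 37481809, rose by 17.1 points, from 29.7% to 49.8%, in the authors' deposited table (q = 0.00226). The Pcdhb3 site at 37461971 went from 63.6% to 79.0% (14.5 points, q = 0.000810) and the Pcdhb22 site at 37679394 from 78.1% to 93.7% (15.3 points, q = 0.00651) in the authors' deposited table. At Pcdhb15 the site of smallest p, at 37634841, was almost fully methylated on both diets, at 93.2% and 98.8% in the authors' deposited table (5.37 points, q = 0.00168). The Pcdhb17 site at 37646709 went from 45.9% to 58.9% in the authors' deposited table (14.2 points, q = 0.00236).

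Pcdhb8 had the largest beta changes in both directions. Near the Pcdhb8 start, at 37515217, methylation went from 38.4% to 59.2% in the authors' deposited table (20.4 points, q = 0.00355). In the same exon, at 37516426, it went from 41.4% to 23.4% in the authors' deposited table (-18.0 points, q = 0.00540), and at 37516540 from 77.7% to 63.1% (-15.7 points, q = 0.00891). Pcdhb2 (3 of 4 higher), Pcdhb10 (1 of 2), Pcdhb18 (2 of 3) and Pcdhb21 (1 of 2) were also mixed. The site of smallest p at Pcdhb2, 37455970, went from 52.3% to 67.0% in the authors' deposited table (14.9 points, q = 0.00101). At Pcdhb10 it was 37571800, from 37.0% to 52.7% in the authors' deposited table (13.9 points, q = 0.00286). At Pcdhb18 it was 37650914, from 58.2% to 72.0% in the authors' deposited table (14.998 points, q = 0.000108). That of Pcdhb21 is given with the neighbouring pairs.

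Neighbouring member sites did not always move together. Of 54 neighbouring pairs at most 1000 bp apart, 16 (29.6%) had opposite directions. The shares were 11.6% of 5495 such pairs in the whole table and 10.9% of 687 pairs of exon sites outside the family. These sets differ in their gaps. Gaps of at most 50 bp made up 10 of the 54 member pairs, against 2591 of the 5495 and 393 of the 687. In that class 1 of 10 member pairs was opposite, against 1.47% of all pairs and 2.54% of the other exon pairs. For gaps over 50 and up to 100 bp 3 of 13 member pairs were opposite, against 8.17% of all pairs and 13.6% of the other exon pairs. For gaps over 100 and up to 500 bp 9 of 23 (39.1%) were, against 21.3% of each. From there to 1000 bp the shares were 3 of 8 (37.5%), 33.2% and 34.9%. The closest opposite pair was at Pcdhb21, 32 bp apart. There the site at 37675129 went from 41.4% to 23.0% in the authors' deposited table (-17.3 points, q = 7.51e-05), while the site at 37675161 went from 65.5% to 78.1% (13.3 points, q = 0.00186). Pairs at Pcdha2 (95 bp), Pcdhgb4 (97 bp) and Pcdha11 (98 bp) also went opposite ways, the Pcdhgb4 pair by -14.8 and 20.9 points in the authors' deposited table. By cluster, 6 of 15 alpha, 5 of 15 beta and 5 of 24 gamma pairs were opposite. The pairs are few and share genes. The part of misplaced reads in these counts was not tested.

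**Figure D4:**
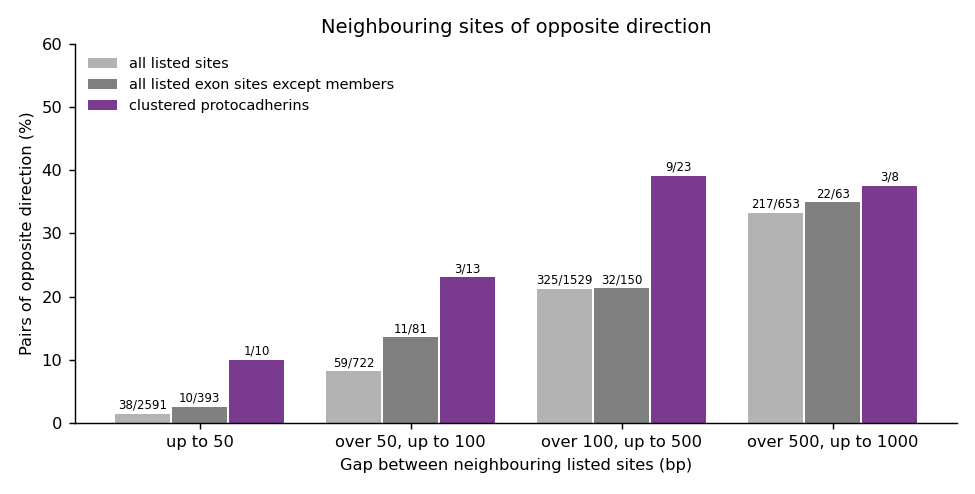
Percent of neighbouring listed site pairs whose differences have opposite signs (vertical axis), by the gap between them (horizontal axis, bp), for all listed sites, exon sites outside the family and clustered protocadherins; labels give opposite pairs over all pairs. Member pairs are opposite at 9 of 23 for gaps over 100 and up to 500 bp.

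Counted by gene, mixed direction was common both in the family and elsewhere. Of the 20 member genes with at least 3 sites, 12 had both directions, 7 were all higher and 1, Pcdhb7, was all lower. Over all symbols with at least 3 sites 66.3% had both. Across the 39 member genes 15 had only rises, 7 only falls and 17 both. Genes with a single listed site can have only one direction, and no such count over all symbols is given here.

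Over the whole table the share of rises differed with the level of methylation. It was 85.0% of the listed sites with a mean level, over both diets, between 20 and 40%, and 32.5% of those between 60 and 80%. The members were higher at 11 of 19 (57.9%) in the first of these ranges and at 13 of 22 (59.1%) in the second. At 40 to 60%, which held the most members, 32 of 41 (78.0%) were higher, against 59.5%. Below 20% the counts were 11 of 17 (64.7%), against 74.9%, and from 80% up 4 of 9 (44.4%), against 35.7%. Low gamma sites were near the table's shares, with 10 of 13 below 20% and 9 of 10 at 20 to 40%. Gamma sites were higher at 12 of 12 from 40 to 60% and at 5 of 7 from 60 to 80%. Alpha and beta sites at 20 to 40% were higher at 1 of 5 and 1 of 4. Members had a mean level of 20 to 80% at 82 of 108 sites (75.9%), against 58.0% of all listed sites.

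**Figure D5:**
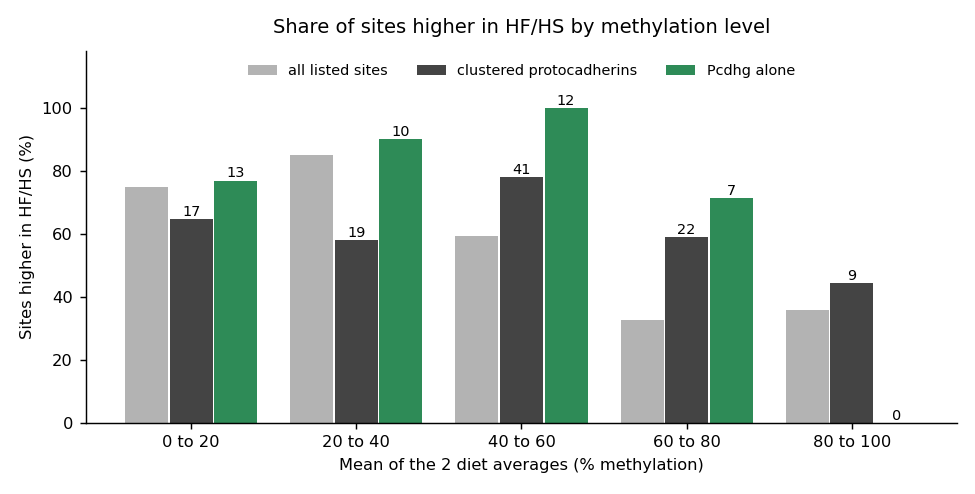
Share of sites higher in high fat/high sucrose (HF/HS, vertical axis, %) by the mean of the 2 diet averages (horizontal axis, % methylation), for all listed sites, the members and Pcdhg sites alone; numbers over the bars are member sites. From 20 to 40% up to 60 to 80% the table's share drops from 85.0% to 32.5%, while the members' shares are 57.9% and 59.1%.

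The C-type genes at the ends of the alpha and gamma clusters, which the rule does not take, are constitutive rather than chosen isoforms. Their 8 listed sites were all higher, against 57.6% of all listed sites. At Pcdhgc5 5 of 5 were, led by a promoter site at 37980030 that went from 42.9% to 61.8% in the authors' deposited table (18.3 points, q = 1.82e-06). A Pcdhac2 promoter site at 37304418 went from 5.30% to 27.5% in the authors' deposited table (18.6 points, q = 9.72e-05), and the single Pcdhgc3 site was 11.5 points higher. Between the first and last member sites the table also lists 11 sites with no symbol, of which 10 were higher, and the sites of Slc25a2 and Taf7, both higher. Of the unnamed sites 4 carry a transcript that RefSeq now gives to Gm37013, a gene with Pcdha4 among its synonyms. Only one of these, at 37113063, lies between the Pcdha3 and Pcdha5 sites. It went from 45.8% to 57.9% in the authors' deposited table (14.1 points, q = 0.000929). The others, at 37815094, 37815212 and 37815791, lie far from it, between the Pcdhb and Pcdhg sites, so the transcript label does not place them at Pcdha4.

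For the counts that follow, the share higher over all listed sites was 57.6%. Genes beside the clusters moved both ways, with 9 of 16 sites higher at 8 of the 19 genes listed as neighbours. Among them, Diap1, an actin-nucleating formin that adjoins the gamma cluster, had 1 of 4 higher. Protocadherins outside the clusters had 9 of 14 sites higher, at 5 genes, of which Pcdh1, with 3 sites, is also counted among the neighbours. Their site of smallest q, at Pcdh1 on chromosome 18 and 22555 bp from its start, went from 48.6% to 19.6% in the authors' deposited table (-29.6 points). Olfactory receptors, another large family of similar copies, had 31 of 45 sites higher (68.9%) at 34 genes. Genes known to act on protocadherin choice or DNA methylation had 12 of 25 sites higher at 11 of 20 genes. Of these, Smchd1, a chromatin protein that represses clustered protocadherins, had 1 of 4 higher. The site of smallest p named for it, on chromosome 17 at 72626485 and -201328 bp from its start, went from 75.0% to 55.4% in the authors' deposited table (-24.2 points, q = 0.000413). The single site at Ctcf, which encodes the looping factor, went from 81.3% to 69.6% in the authors' deposited table (-11.8 points), while 2 of 2 sites at the histone methyltransferase gene Ehmt2 and 3 of 3 at its partner gene Wiz were higher.

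In whole liver a change in a cell's methylation and a change in the mix of cells cannot be told apart. Sites at hepatocyte marker genes were higher at 22 of 24 (7 of 10 genes listed), at endothelial markers at 13 of 30 (7 of 8), at lymphocyte markers at 5 of 13 (4 of 8), at cholangiocyte markers at 3 of 9 (5 of 6) and at neuron markers at 14 of 17 (3 of 6). Over all listed sites 57.6% were higher. The lists also began at different levels, and the table's share of rises differed with level, as given above. The median low fat/low sucrose average was 21.7% at hepatocyte, 33.0% at neuron and 61.7% at cholangiocyte marker sites. At endothelial and lymphocyte marker sites it was 65.4% and 75.1%. The parts of level in these counts and of cell mix in the protocadherin differences were not tested.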

How the data were processed

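Per the labels' protocols, liver DNA was captured with Agilent's bisulfite sequencing kit. Build mm9 and the tools methylKit, Bismark, Trim Galore and CASAVA 1.8 are in the submitters' processing notes, without settings. Per the file headers, the authors' table gives a p-value and q-value per site, the average percent methylation of each diet and a difference in percentage points. At all 23904 sites the deposited difference was above 0 where the high fat/high sucrose average was the higher. For members the deposited difference and the difference of the averages were a median of 1.04 points apart. How averages were weighted is not given in the sources used here.

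Members were taken by symbol with Python 3.11.15 and pandas 2.3.3. Counts and medians were set beside those of all listed sites, with no test of members as a set. Neighbouring pairs are adjacent sites of the same set. Every member gene is named; full values go to sites of smallest p, the 5 largest rises and the 5 largest falls, and some others chosen after their values were seen. Joining of sites and pairing were tested on simulated data. Members and lists were chosen with earlier results of these data known. No sequence is printed.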

Additional observations from a re-analysis of the deposited data

How the results depend on the processing

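The share of member sites higher in high fat/high sucrose was 65.7% (exact Clopper-Pearson 95% interval 56.0 to 74.6, counting of sites only). It stayed in that interval under 9 of 10 alternatives, which reuse the same sites. The interval takes sites as independent, which sites of the same 13 mice are not, and it also holds the 57.6% of all listed sites. Leaving out Pcdhg sites gave 53.0%, since that cluster holds most rises. The others ranged up to 73.7%, without Pcdha sites, and down to 61.1%, with sites within 1000 bp joined (33 of 54, against 55.6% over all listed sites joined the same way). Taking every site of the stretch, an alternative chosen after seeing the data, gave 69.1%. The median difference was 11.7 points, 12.9 at q under 0.001 and 12.6 with sites joined, against 7.41 over all listed sites as listed. Since no listed difference is under 5.0 points in size, the sign of this median only gives the direction of the majority. Taking the difference of the averages left the sign of all 44 named sites as listed. The labels name no pairing of mice between the diets, so no paired analysis applied, and the deposited table gives each diet only as an average. Depth limits each average by an unknown amount.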
